A study of Homo sapiens with 6 samples.

Results

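The response of MDA-MB-231 cells to an siRNA against p53 was read across all measured genes by comparing the 2 arrays of cells given sip53 with the 2 arrays of cells given the control siRNA siNC. MDA-MB-231 is an established human cell line from a breast tumour without hormone receptors, and its p53 is a mutant, so sip53 targets the mutant transcript. These 4 arrays are part of a series of 6, and the other 2 are from cells given siATM, against the kinase ATM, which signals DNA breaks. All groups, the control included, were transfected with Lipofectamine RNAiMAX and grown in the same DMEM medium with serum. The siRNA dose, the time of harvest, and whether sip53 is a single duplex or a pool are not given in the sources used here. Nothing states that the 2 samples of a group were separate cultures, so the p-values cover no more than the spread among these samples, part or all of which may be technical. Of 14884 genes named in the annotation, 10640 were bright enough to be tested. The level of the targeted transcript itself is not analysed here, so the extent of the knockdown is not given.

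Wild-type p53 is a transcription factor that binds its own response elements and turns on genes of cell cycle arrest, repair and cell death. Many cancer mutations change its DNA-binding domain, and such mutant proteins accumulate in tumour cells and are known to act through other transcription factors, among them NF-kB, NF-Y and the sterol regulatory element-binding proteins (SREBPs). NF-kB drives inflammatory genes such as chemokines, and SREBPs drive the enzymes that make cholesterol.

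Levels are given as log2 values of an array, and a difference of 1 on this scale is a 2-fold difference. The arrays had medians of 5.95 to 5.98. Across the tested genes the SD of the difference between the 2 arrays of a group was 0.124 for siNC and 0.115 for sip53, and between a sip53 and an siNC array it was 0.205 to 0.209. Markers of the line were bright in every array, with mean log2 values over the 6 arrays of 11.62 for the intermediate filament gene VIM, 12.69 for MSN, 12.63 for the receptor gene AXL and 10.83 for CD44. The hormone receptor genes ESR1 (5.73) and PGR (4.79) and the luminal factor gene FOXA1 (5.31) lay below 5.96, the limit for testing. Of epithelial and luminal genes, EPCAM (9.02), KRT19 (10.64) and the luminal factor gene GATA3 (8.40) were bright. The receptor gene ERBB3 (6.52) also lay above the limit. The leukocyte markers PTPRC and CD3E were not analysed here.

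After sip53, 582 genes were higher and 544 lower than in control cells, or 10.6% of those tested (5.47% higher and 5.11% lower; limma, adjusted p below 0.05, hereafter "changed", "rose" or "fell"). The response was broad and shallow. The median size of a change was 0.36 on the log2 scale, and 149 of the changed genes moved by less than 1.2-fold. At 1.5-fold or more 145 genes changed (1.36% of those tested), 60 of them higher (0.564%) and 85 lower (0.799%), and at 2-fold or more 1 rose and 8 fell. The 2 sip53 arrays lay apart from the 2 siNC arrays in all 1126 changed genes, but this held for 33.1% of all genes upward and 25.8% downward. When any 1 of the 4 arrays was left out the number of changed genes was 272 to 329, and 208 genes (1.95% of those tested) passed in all 6 fits with 1 array left out, 87 of them higher and 121 lower. Centring each array on its own median moved the split to 410 higher and 668 lower. The direct comparison of sip53 with siATM called 3219 genes (30.3%), and it is used below only to place single genes.

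**Figure D1:**
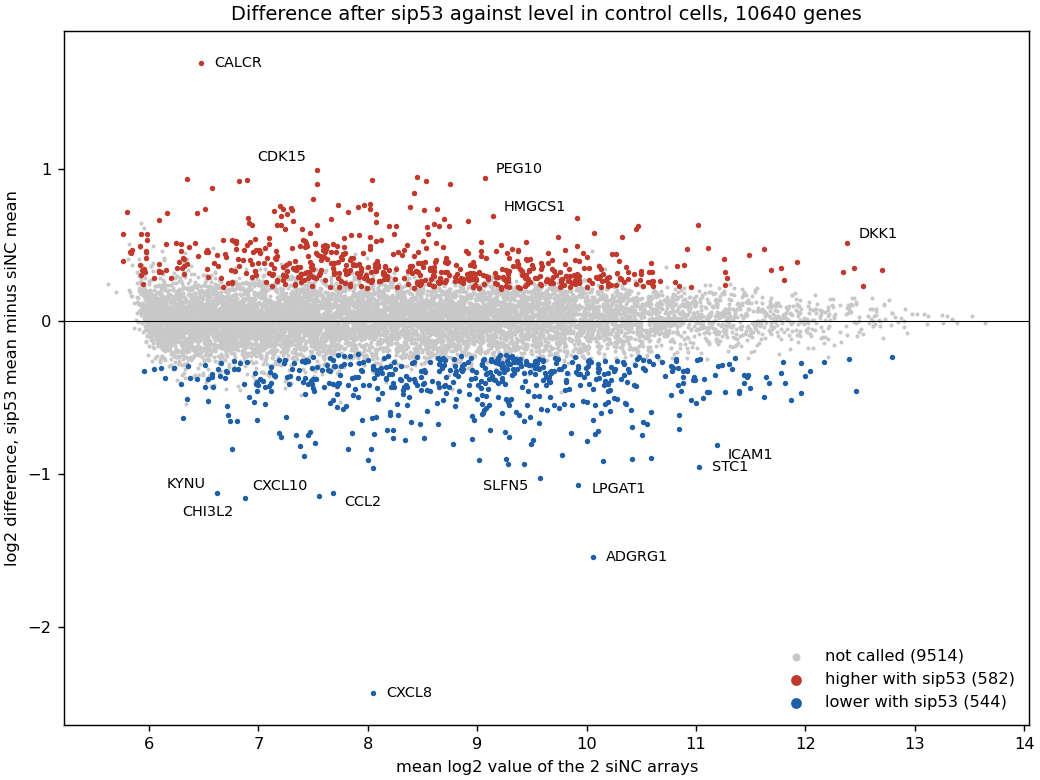
Log2 difference between the sip53 and siNC means (y axis) against the mean log2 value of the 2 siNC arrays (x axis) for the 10640 genes tested; red points rose (582), blue points fell (544) and grey points did not pass the test. CXCL8 stands lowest at −2.44 and CALCR highest at 1.69, and changed genes occur at all levels.

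Several chemokine genes fell. Of 19 chemokine and cytokine genes tested, 9 were lower and 0 higher by limma (0 higher also at an unadjusted p below 0.05), or 47.4% lower against 5.11% of all genes, with a median log2 fold change of −0.30 against 0.0145 over all genes tested. CXCL8, the neutrophil chemokine interleukin 8, had log2 values of 8.11 and 7.98 with siNC, 5.68 and 5.54 with sip53 and 6.12 and 6.05 with siATM. Its sip53 arrays were the lowest of the 6 and did not meet those of either other group. The difference from siNC was −2.44 (SE 0.07, adjusted p = 3.98e-05), and the difference from siATM was −0.48 (adjusted p = 0.00329). Both sip53 arrays of CXCL8 lay below 5.96, the limit for testing, which the gene met on its mean over the 6 arrays (6.58). The sip53 arrays of KYNU and CHI3L2, given below, lay under that limit too, as did the second sip53 array of MMP1 (5.83). Sizes of differences at such dim levels are less certain. CXCL10, an interferon-inducible T cell chemokine, was at 7.74 and 7.36 with siNC and at 6.37 and 6.44 with sip53. CCL2, the monocyte chemoattractant, was at 7.67 and 7.69 with siNC and at 6.62 and 6.48 with sip53. In both genes the sip53 arrays lay well below the lower control array, and they passed at log2 fold changes of −1.15 and −1.13.

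Smaller falls were seen in CXCL11 (−0.65, SE 0.10), IL24 (−0.43), CXCL2 (−0.42), the transmembrane chemokine gene CXCL16 (−0.37), IL18 (−0.36) and CSF1, the macrophage growth factor (−0.25). CXCL5 (0.18), IL11 (0.09), CXCL12 (0.01), TNF (−0.05) and LIF (−0.31) did not pass the test. CXCL2, which was 8.30 and 8.39 with siNC and 7.81 and 8.04 with sip53, was also lower than with siATM, where it was 8.22 and 8.43 (adjusted p = 0.0225). Of the other 7, CXCL10, CXCL16 and CSF1 were also lower than with siATM (adjusted p = 0.00788, 0.0376 and 0.00154), and CCL2, CXCL11, IL24 and IL18 did not pass that test (0.193, 0.906, 0.706 and 0.227). CXCL8, CXCL10 and CCL2 passed in every fit with 1 array left out, but the count of 9 fell to 4 or 5 without any 1 of the 4 arrays.

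Promoters of CXCL8, CXCL2, CXCL10, CXCL11 and ICAM1, all of which hold the short motif that NF-kB binds, are shown. NF-kB is a known activator of these genes, and its part in their falls was not tested. Each line holds the 200 bases before the start of the RefSeq transcript (build GRCh38.p14), 5′ to 3′ on the strand of the gene, with matches to GGNNNTTCC on either strand in capitals.
CXCL8, chr4:73740369-73740568, plus strand: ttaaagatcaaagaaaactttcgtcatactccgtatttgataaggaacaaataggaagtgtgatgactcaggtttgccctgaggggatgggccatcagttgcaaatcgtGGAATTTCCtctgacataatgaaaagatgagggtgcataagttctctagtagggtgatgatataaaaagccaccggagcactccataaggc
CXCL2, chr4:74099196-74099395, minus strand: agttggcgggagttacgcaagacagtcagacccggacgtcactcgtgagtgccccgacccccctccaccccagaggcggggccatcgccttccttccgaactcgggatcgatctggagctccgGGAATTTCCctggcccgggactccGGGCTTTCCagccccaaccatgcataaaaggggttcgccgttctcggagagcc
CXCL10, chr4:76023498-76023697, minus strand: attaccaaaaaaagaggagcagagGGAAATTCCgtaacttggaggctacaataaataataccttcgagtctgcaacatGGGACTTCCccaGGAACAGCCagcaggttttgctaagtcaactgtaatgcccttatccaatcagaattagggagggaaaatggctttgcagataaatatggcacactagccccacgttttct
CXCL11, chr4:76036071-76036270, minus strand: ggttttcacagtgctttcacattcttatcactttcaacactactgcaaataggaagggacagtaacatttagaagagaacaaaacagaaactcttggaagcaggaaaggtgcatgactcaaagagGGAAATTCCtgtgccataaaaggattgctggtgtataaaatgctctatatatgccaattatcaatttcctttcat
ICAM1, chr19:10270920-10271119, plus strand: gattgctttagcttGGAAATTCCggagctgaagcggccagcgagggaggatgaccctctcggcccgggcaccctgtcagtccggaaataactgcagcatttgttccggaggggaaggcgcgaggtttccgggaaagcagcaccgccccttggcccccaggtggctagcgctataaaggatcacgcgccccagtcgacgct

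The CXCL8 match begins 91 bases before the start, that of CXCL11 75 bases and that of ICAM1 186 bases, while CXCL2 has 2 matches and CXCL10 has 3. Over windows of 300 bases, 250 before and 50 after the start, 8223 tested genes had a promoter in the table, and 27.9% of them held this motif. The share was 33.5% of 445 genes that fell and 24.7% of 458 genes that rose. Of the 5 changed chemokine and cytokine genes with a promoter, CXCL8, CXCL2, CXCL10 and CXCL11 held it, and IL24 did not. In the whole list 6 of 11 genes with a promoter held it (54.5%), among them CXCL5 and IL32, which did not change. The p53 motif, taken as a single decamer of its response element, was found in 7.48% of all promoters, 7.42% of those of genes that fell and 7.21% of those that rose. These are counts of letters in a window, and binding was not measured.

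The NF-kB list moved the same way as the chemokines. Of 14 subunits, regulators and target genes tested, 5 fell and 0 rose (1 higher, CD83 at 0.18, at an unadjusted p below 0.05). The share that fell was 35.7% against 5.11% of all genes, and the median was −0.23. ICAM1, the leukocyte adhesion molecule, was at 11.14 and 11.24 with siNC, 10.37 and 10.39 with sip53 and 11.11 and 11.02 with siATM. Only its sip53 arrays were low, and it was lower than with siNC (−0.81, SE 0.06, adjusted p = 0.00141) and than with siATM (adjusted p = 0.000505). The subunit genes NFKB2 (−0.43) and NFKB1 (−0.30), the adaptor gene TRAF1 (−0.31) and the syndecan gene SDC4 (−0.26) fell less. NFKB2 and SDC4 were also lower than with siATM (adjusted p = 0.00277 and 0.0334), and NFKB1 and TRAF1 did not pass that test (0.0547 and 0.546). The subunit genes RELB (−0.28), REL (−0.27) and RELA (−0.03) did not pass the test. All 5 genes that fell held GGNNNTTCC in their promoter, as did 10 of the 12 listed genes with a promoter. Without any 1 of the 4 arrays 1 or 2 members of the list fell, and 2 without the filter on dim genes; ICAM1 passed in every fit with 1 array left out.

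Of 7 complement and coagulation genes tested, 3 fell and 1 rose (42.9% lower against 5.11% of all genes), and 2 fell without any 1 of the 4 arrays. C3, the central complement component, was at 8.72 and 8.56 with siNC and 8.01 and 7.92 with sip53, and CFB, factor B of the alternative pathway, was at 9.53 and 9.33 with siNC and 8.88 and 8.67 with sip53. THBD, the anticoagulant receptor thrombomodulin, fell by 0.38 on the log2 scale and TFPI2, a serine protease inhibitor, rose by 0.44. C4A and C4B, which the naming rule did not pick and which were added with their values known, each had a log2 fold change of −0.63, but the sequences of these copies are so alike that their signals cannot be separated. C3 and CFB were about as low with siATM as with sip53 (adjusted p of the difference 0.548 and 0.285).

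Interferon-stimulated genes did not follow. Of 30 tested, 1 rose, IFIT1 (0.27, a sensor of foreign RNA), and 1 fell, SLFN5, with a median of 0.06 (6.67% changed against 10.6% of all genes). At an unadjusted p below 0.05 by limma 8 were higher and 2 lower, and 20 of the 30 lay above 0. SLFN5, a Schlafen family gene, was at 9.66 and 9.48 with siNC, 8.62 and 8.46 with sip53 and 9.75 and 9.66 with siATM. It was 2.04-fold lower than in control cells, and its difference from siATM was −1.16 (adjusted p = 0.000313). ISG15 (−0.02), IRF7 (0.09), RIGI (−0.01) and MX2 (0.06) lay near 0.

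**Figure D2:**
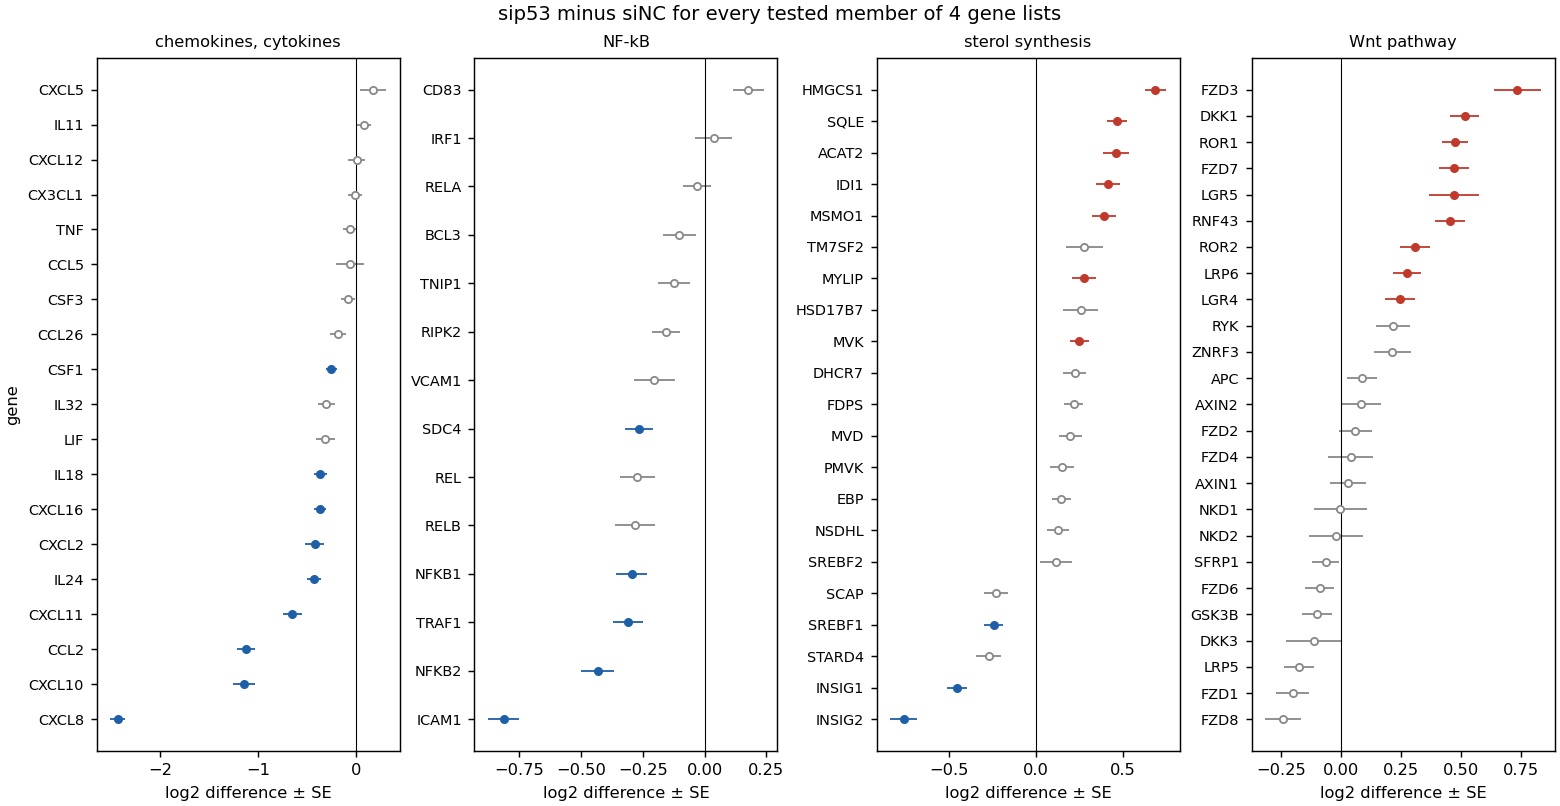
Log2 difference between sip53 and siNC (x axis, points with moderated SE) for every tested member of the chemokine and cytokine, NF-kB, sterol and Wnt lists (y axis); filled red points rose, filled blue points fell and open points did not pass the test. No member of the first 2 lists rose, the sterol list holds rises and falls, and no member of the Wnt list fell in this fit, though 1 did with each array centred or with the filter at the 70th percentile and 2 with a variance trend.

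Several receptor genes of the Wnt pathway rose. Wnt proteins are secreted signals that bind Frizzled receptors with the co-receptors LRP5 and LRP6, or the receptor tyrosine kinases ROR1 and ROR2, and R-spondin receptors (LGR4, LGR5) strengthen the signal while the ligases RNF43 and ZNRF3 remove Frizzled from the surface. Of 25 genes tested, 9 rose and 0 fell (1 fell with each array centred, 1 with the filter at the 70th percentile and 2 with a variance trend, and 3 were lower at an unadjusted p below 0.05), or 36.0% higher against 5.47% of all genes, with a median of 0.08. All but 1 of the 9 encode membrane proteins that receive the signal or remove its receptors. FZD3, a Frizzled receptor, was at 6.52 and 6.51 with siNC, 7.39 and 7.11 with sip53 and 6.22 and 6.38 with siATM. ROR1 was at 10.91 and 10.93 with siNC and 11.40 and 11.38 with sip53. FZD7 was at 9.84 and 9.76 with siNC and 10.24 and 10.30 with sip53. In each of the 3 the sip53 arrays lay above both control arrays, and FZD3 was also higher than with siATM (adjusted p = 0.000689). ROR1 and FZD7 did not pass that test (0.101 and 0.706). Both were also higher with siATM than with siNC, by 0.34 and 0.43 (adjusted p = 0.00486 and 0.00302).

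The other receptors that rose were LGR5 (0.47), ROR2 (0.31), LRP6 (0.27) and LGR4 (0.25), and the ligase gene RNF43 rose by 0.45. The secreted inhibitor DKK1, a Wnt antagonist that is abundant in these cells, rose from 12.36 and 12.40 to 12.86 and 12.94, or 1.43-fold. The receptor genes FZD8 (−0.24), FZD1 (−0.20), FZD6 (−0.09) and LRP5 (−0.17), the intracellular components APC (0.09), AXIN1 (0.03) and GSK3B (−0.10), and AXIN2 (0.08) and NKD1 (0.00), which are transcribed in response to the pathway, did not pass. The count of 9 fell to 4 or 5 without any 1 of the 4 arrays and to 5 without the filter on dim genes. LGR4 was far higher with siATM, at 10.97 and 10.86, than with sip53, at 10.15 and 10.12 (adjusted p = 0.000358).

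Sterol genes moved both ways. Of 21 tested, 7 rose and 3 fell (33.3% and 14.3%, against 5.47% and 5.11% of all genes), with a median of 0.22. Among those that rose were enzymes of the pathway from acetyl-CoA to cholesterol, namely HMGCS1 (9.13 and 9.16 with siNC, 9.85 and 9.81 with sip53), SQLE (0.47), ACAT2 (0.46), IDI1 (0.42), MSMO1 (0.39) and MVK (0.25), together with MYLIP (0.28), a ligase that degrades the LDL receptor. Those that fell were INSIG2, INSIG1 and SREBF1. INSIG2, which retains SREBPs in the endoplasmic reticulum, was at 8.47 and 8.56 with siNC and 7.81 and 7.69 with sip53, a 1.70-fold fall. INSIG1 fell by 0.46 and SREBF1, which encodes an SREBP, by 0.24 on the log2 scale. SREBF2 (0.11), SCAP (−0.23), FDPS (0.22) and MVD (0.20) did not pass.

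With siATM, HMGCS1 was at 9.10 and 9.20 and SQLE at 8.31 and 8.34, and both differed from sip53 (adjusted p = 0.000474 and 0.00116). Of the 19 sterol genes with a promoter, 15 held CCAAT on either strand, the core of the NF-Y motif, or 78.9% against 41.9% of all promoters and 45.2% of those of genes that rose. The sterol response element TCACNCCAC was found in 1 of the 19, or 5.26% against 1.39% of all promoters. The counts were 2 to 4 higher and 2 lower without any 1 of the 4 arrays, while HMGCS1, SQLE, INSIG1 and INSIG2 kept their call in each of these fits.

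Neighbouring lipid genes held single large changes. LPGAT1, an acyltransferase of membrane phospholipids, was at 9.96 and 9.88 with siNC and 8.81 and 8.90 with sip53. Of 29 genes of fatty acid synthesis and lipid storage tested, it was 1 of 2 that fell, and 3 rose (17.2% changed against 10.6% of all genes), with a median of 0.07. ACER2, an alkaline ceramidase that releases sphingosine from ceramide, was at 6.81 and 6.83 with siNC, 7.60 and 7.88 with sip53 and 6.65 and 6.43 with siATM. Of 15 sphingolipid genes, ACER2 and the acid ceramidase gene ASAH1 (0.22) rose and the glucosylceramide synthase gene UGCG (−0.46) fell, or 20.0% changed. KYNU, the kynureninase of tryptophan breakdown, was at 6.55 and 6.69 with siNC, 5.61 and 5.38 with sip53 and 6.53 and 6.52 with siATM, so its sip53 arrays alone were low (difference from siATM −1.03, adjusted p = 0.000415).

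**Figure D3:**
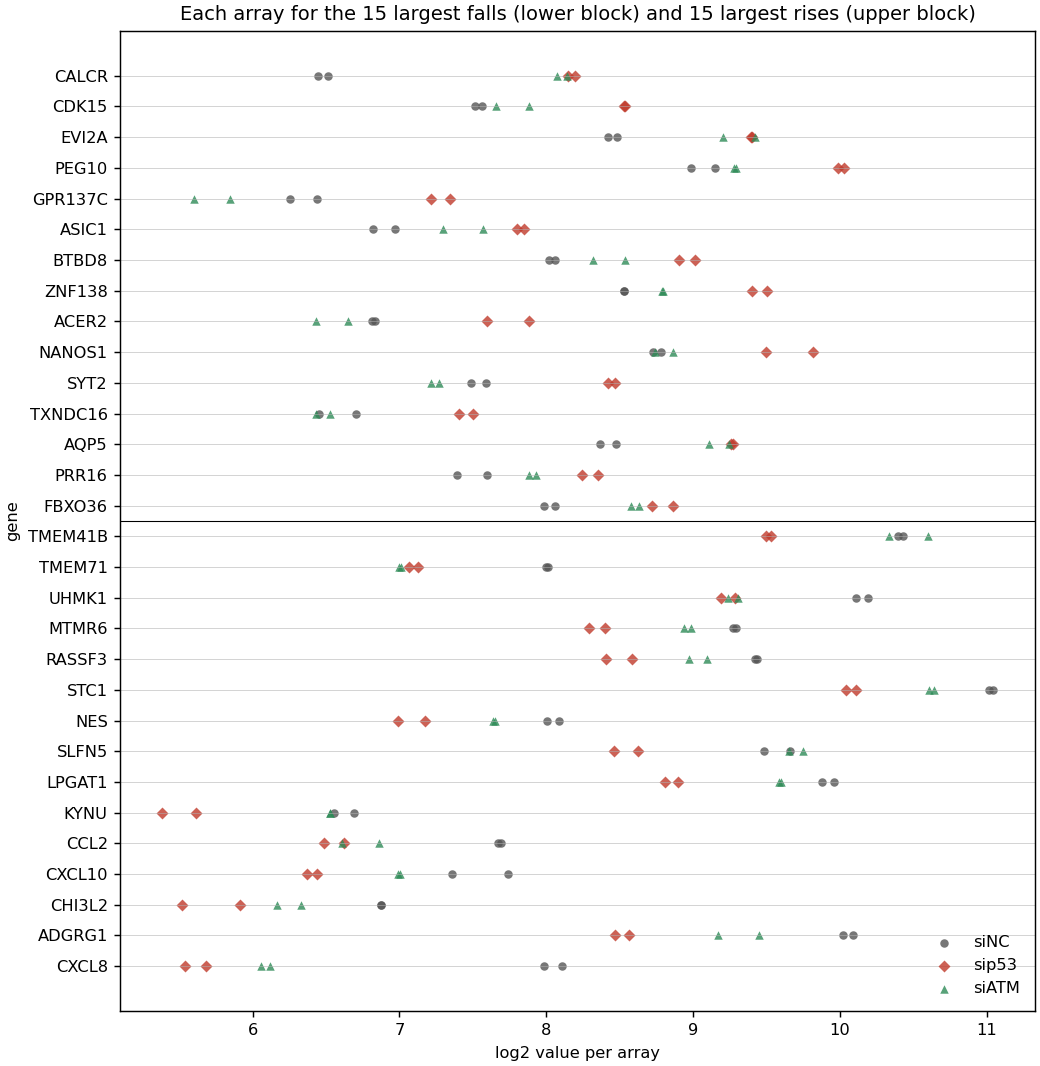
Log2 value of each array (x axis) for the 15 genes with the largest rises (upper block) and the 15 with the largest falls (lower block) on the y axis; grey circles are siNC, red diamonds sip53 and green triangles siATM, 2 arrays each. The sip53 arrays do not meet the siNC arrays in any row, by the rule that chose the rows, and the siATM arrays lie with sip53 in some rows (CALCR, EVI2A) and with siNC in others (SLFN5, NANOS1).

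Receptors at the cell surface held the largest rise and the next largest fall after CXCL8. Of 32 G protein-coupled receptor genes tested, 7 rose and 4 fell (21.9% and 12.5%, against 5.47% and 5.11% of all genes). CALCR, the calcitonin receptor, was at 6.51 and 6.45 with siNC, 8.15 and 8.19 with sip53 and 8.14 and 8.07 with siATM. It was 3.24-fold higher than in control cells (adjusted p = 5.27e-05), and its difference between sip53 and siATM was 0.07 (SE 0.06, adjusted p = 0.436). ADGRG1, an adhesion receptor, was at 10.02 and 10.09 with siNC, 8.47 and 8.56 with sip53 and 9.17 and 9.45 with siATM, with the sip53 arrays lowest. GPR137C went opposite ways, at 6.44 and 6.25 with siNC, 7.35 and 7.22 with sip53 and 5.85 and 5.60 with siATM (difference between sip53 and siATM 1.56, adjusted p = 0.000248).

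Further receptors that rose were the adhesion receptor gene ADGRL2 (0.74), GPR39 (0.50), the oxytocin receptor gene OXTR (0.49), the sphingosine-1-phosphate receptor gene S1PR2 (0.44) and the prostaglandin receptor gene PTGER4 (0.33). ADGRG6 (−0.60), the adenosine receptor gene ADORA2B (−0.47) and GPR176 (−0.26) fell. Of 23 receptor tyrosine kinase genes, 6 rose and 1 fell (26.1% and 4.35%, against 5.47% and 5.11% of all genes). Those that rose were ROR1, ROR2, the ephrin receptor genes EPHB3 (0.47), EPHB6 (0.47) and EPHA4 (0.34), and IGF1R (0.36). MET, the hepatocyte growth factor receptor, fell by 0.38. EGFR (0.01) and AXL (0.04) did not pass. Without any 1 of the 4 arrays the G protein-coupled receptor counts were 3 to 6 higher and 2 to 3 lower, and the receptor tyrosine kinase counts 2 to 3 higher (2 also with the filter at the 70th percentile) and 0 lower.

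Secreted growth factors moved both ways, with 6 of 24 higher and 5 lower (45.8% changed against 10.6% of all genes). ADM, the vasodilator peptide adrenomedullin, was at 7.997 and 7.94 with siNC, 8.69 and 8.77 with sip53 and 7.85 and 7.83 with siATM, so that only sip53 was high. STC1, a secreted glycoprotein often grouped with ADM as hypoxia-responsive, was at 11.01 and 11.04 with siNC and 10.11 and 10.04 with sip53, so this pair went opposite ways. EGF (−0.61), HBEGF (−0.39) and VEGFB (−0.34) fell, and PDGFC (0.39), NRG1 (0.38) and KITLG (0.37) rose. Without any 1 of the 4 arrays 1 or 2 rose and 2 or 3 fell.

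Of 25 TGF-beta and BMP genes, 6 rose and 5 fell (1 or 2 and 2 or 3 without any 1 of the 4 arrays), or 44.0% changed against 10.6% of all genes. FST, follistatin, which binds activins, rose from 8.67 and 8.59 to 9.39 and 9.35. It was about as high with siATM, at 9.39 and 9.45 (adjusted p of the difference 0.559). SMAD4, the common mediator of the pathway, fell from 10.62 and 10.55 to 10.03 and 9.96. The BMP antagonist gene CHRDL1 (−0.54) fell, and BMP4 (0.34) and its antagonist gene NOG (0.25) rose. Of 15 YAP and TEAD genes, 3 fell, YAP1 itself among them (−0.66, SE 0.07), with CCN2 (−0.41) and CRIM1 (−0.28), and FJX1 rose (0.34), or 26.7% changed.

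Matrix and protease genes held large single changes. In the matrix list 3 of 9 genes rose and 1 fell (44.4% changed against 10.6% of all genes). In the list of proteases, sheddases and inhibitors 3 of 25 rose and 2 fell (20.0% changed). Without any 1 of the 4 arrays the matrix counts were 1 or 2 higher and 0 or 1 lower, and the protease counts 1 to 3 higher and 1 or 2 lower. MMP1, interstitial collagenase, was at 6.70 and 6.82 with siNC and 6.01 and 5.83 with sip53, and the copper amine oxidase gene LOXL4, which cross-links collagen, rose by 0.68 on the log2 scale. FBN1, the microfibril component fibrillin, rose by 0.57, and the matrix gene TNC fell by 0.46. MMP1, LOXL4 and FBN1 moved the same way with siATM, at −0.68, 0.58 and 0.55 against siNC. Their differences between sip53 and siATM did not pass (adjusted p = 0.296, 0.394 and 0.817), while TNC was lower than with siATM (0.00134). Of 32 genes of MAPK feedback and the immediate-early response, 3 rose and 4 fell (1 or 2 and 1 without any 1 of the 4 arrays), or 21.9% changed against 10.6% of all genes. The phosphatases of MAP kinases went both ways, with DUSP5 (0.47) and DUSP10 (0.41) higher and DUSP6 (−0.27) lower. Of 9 antigen presentation genes, 2 rose (22.2% against 5.47% of all genes), the stress ligands of natural killer cells MICA (0.44) and MICB (0.47). Of 35 autophagy and lysosome genes, 6 fell (17.1% against 5.11% of all genes) and 1 rose. The falls were led by TFE3 (−0.48), a transcription factor for lysosomal genes, CTSK (−0.48), a lysosomal protease, and OPTN (−0.42), an autophagy receptor. The count of 6 was 1 or 2 without any 1 of the 4 arrays.

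Several of the most changed genes belong to none of these groups. CHI3L2, a chitinase-like secreted protein, was at 6.87 in both siNC arrays and at 5.52 and 5.91 with sip53. NES, the intermediate filament nestin, was at 8.09 and 8.002 with siNC and 7.17 and 6.99 with sip53. It is in a list of 19 tested neural-type genes, as is PEG10 below. In that list 4 rose and 5 fell (47.4% changed against 10.6% of all genes), with NANOS1 (0.90) also higher and SLIT2 (−0.83) also lower. UHMK1, a kinase that phosphorylates stathmin, fell by 0.92 and TMEM41B, a scramblase of the endoplasmic reticulum needed for autophagy, by 0.90 on the log2 scale. Only sip53 was low in TMEM41B, which was at 10.60 and 10.34 with siATM, while UHMK1 was at 9.31 and 9.24 with siATM and so low in both. Among genes that rose, the imprinted gene PEG10 was at 8.99 and 9.15 with siNC, 9.99 and 10.03 with sip53 and 9.28 and 9.29 with siATM. ASIC1, an acid-sensing ion channel, rose by 0.93, SYT2, a synaptotagmin of vesicle release, by 0.90, and AQP5, a water channel, by 0.84. AQP5 was about as high with siATM, at 9.24 and 9.11 (adjusted p of the difference 0.385).

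Genes of cell death changed in 5 of 19 cases, or 26.3% against 10.6% of all genes. The BH3-only genes BMF (0.74, SE 0.07) and BCL2L11 (0.32), which promote apoptosis, rose. The survival genes CFLAR (−0.36), MCL1 (−0.31) and BCL2L1 (−0.27) fell. BMF was at 7.33 and 7.28 with siNC, 8.12 and 7.97 with sip53 and 7.55 and 7.53 with siATM. BBC3 (0.12), PMAIP1 (−0.05) and BAX (0.11), the classical p53-driven members, did not pass. BMF passed in every fit with 1 array left out, while neither BCL2L11 nor any of the 3 that fell passed when any 1 of the 4 arrays was left out.

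Among p53 target genes 16.0% changed against 10.6% of all genes, with 2 of 25 tested genes higher (SESN1 at 0.42 and PLK2 at 0.27) and 2 lower (GDF15 and CCNG1, the latter at −0.31) and a median of 0.03. Without any 1 of the 4 arrays 0 or 1 rose and 1 fell. GDF15, a stress-induced cytokine, was at 10.36 and 10.47 with siNC, 9.71 and 9.74 with sip53 and 10.59 and 10.67 with siATM. It was 1.61-fold lower than in control cells. Of 34 genes reported as targets of mutant p53, 14.7% changed against 10.6% of all genes. The shares were 5.88% higher and 8.82% lower, against 5.47% and 5.11% of all genes. In this list 2 rose, RRM2 (0.28) and PLK2 (0.27), and 3 fell, RRM1 (−0.28), the thioredoxin reductase gene TXNRD1 (−0.27) and TYMS (−0.24). None of these 5 passed when any 1 of the 4 arrays was left out. Of the basic machinery, 0 of 51 cytosolic ribosomal protein genes and 0 of 27 respiratory chain genes changed by limma (3 of each list at an unadjusted p below 0.05), 1 of 73 mitochondrial ribosomal protein genes and 2 of 54 splicing factor genes fell, and of 41 tRNA synthetase and translation initiation genes 3 rose and 4 fell (17.1% changed).

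**Figure D4:**
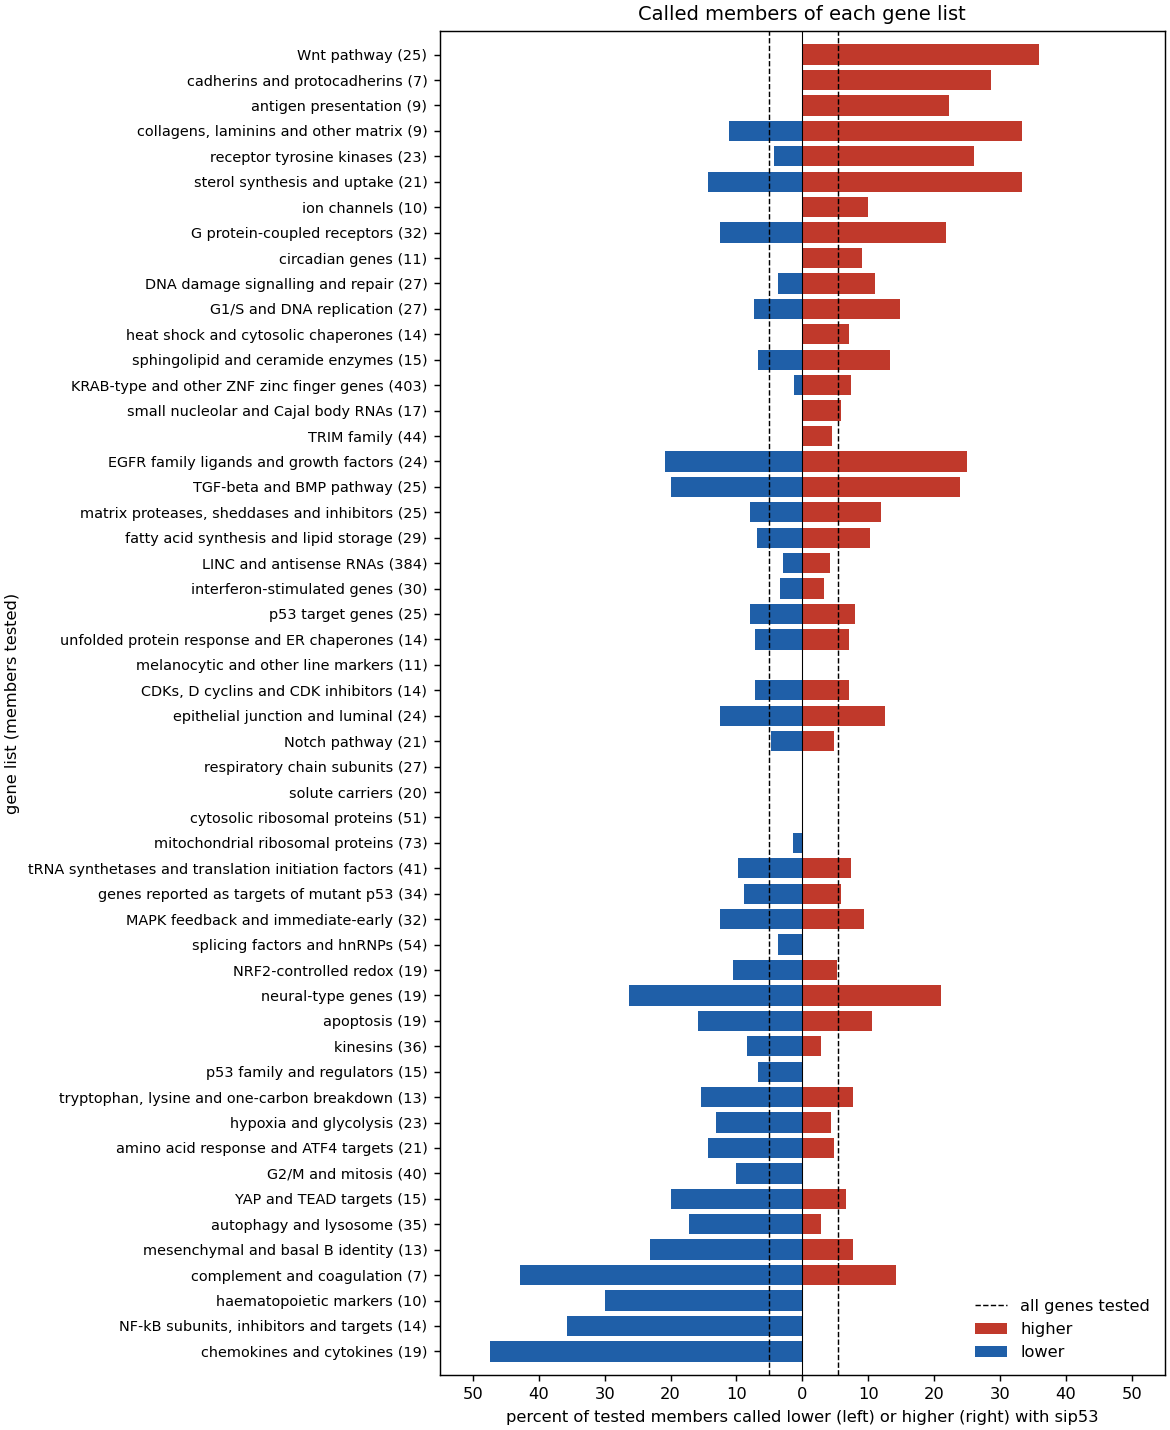
Percent of tested members that fell (blue, left) or rose (red, right) with sip53 (x axis) for each gene list with at least 7 tested members (y axis, number tested in brackets); dashed lines mark the shares over all genes tested, 5.11% lower and 5.47% higher. The chemokine, NF-kB and complement lists reach furthest to the left and the Wnt list furthest to the right.

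Of 40 G2/M genes 4 fell and 0 rose (10.0% lower against 5.11% of all genes), with a median of −0.07. At an unadjusted p below 0.05 by limma 11 were lower and 2 higher. With the filter at the 70th percentile, and with a variance trend, 9 fell and 1 rose. None of the 4 passed when any 1 of the 4 arrays was left out. Of 27 G1/S and replication genes 4 rose and 2 fell (22.2% changed), and 1 rose and 0 fell without any 1 of the 4 arrays. CCNE2, cyclin E2, was at 8.68 and 8.70 with siNC, 9.16 and 9.19 with sip53 and 8.36 and 8.25 with siATM, highest with sip53 and lowest with siATM. Among kinases that pair with cyclins, CDK15 rose from 7.56 and 7.51 to 8.53 and 8.53 and CDK19, a subunit of the Mediator kinase module, fell from 8.91 and 9.01 to 8.25 and 8.12. Of 27 genes of DNA damage signalling and repair 3 rose and 1 fell (14.8% changed against 10.6% of all genes), with a median of 0.04. RAD54B (0.38), CLSPN (0.28) and BARD1 (0.22) rose. TDP1, which clears trapped topoisomerase 1, fell by 0.55 on the log2 scale.

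Of 403 ZNF zinc finger genes tested, most of which encode DNA-binding repressors, 368 did not change. A total of 30 rose (7.44%, near the 5.47% of all genes) and 5 fell (1.24% against 5.11%), and 269 lay above 0. The median was 0.06 against 0.0145 over all genes tested. ZNF138 had the largest rise, from 8.53 and 8.53 to 9.50 and 9.40, followed by ZNF429 (0.56), ZNF488 (0.54), ZNF195 (0.54) and ZNF91 (0.52). Of the 196 on chromosome 19, which holds the large ZNF clusters, 17 rose, or 8.67%, against 6.15% of the 179 outside chromosomes 7 and 19. Many of these genes have close paralogs and their probe sets may share signal. The counts were 6 to 7 higher and 0 to 1 lower without any 1 of the 4 arrays, 10 and 1 without the filter on dim genes, 46 and 17 with the filter at the 70th percentile, and 24 and 10 with each array centred.

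**Figure D5:**
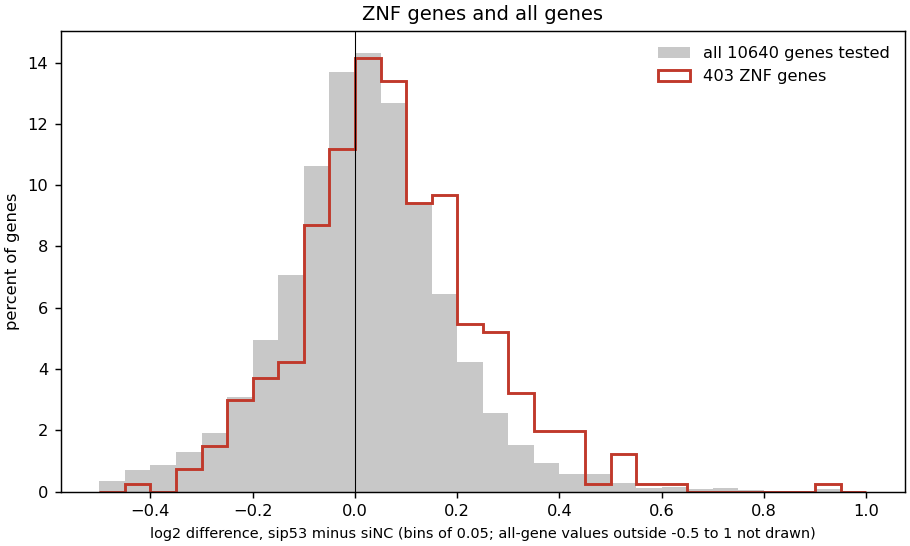
Percent of genes (y axis) in bins of the log2 difference between sip53 and siNC (x axis) for all 10640 genes tested (grey) and the 403 ZNF genes (red outline). The ZNF genes sit slightly to the right, with a median of 0.06 against 0.0145.

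Genes that mark other cell types moved in places. Of 10 haematopoietic markers tested, 3 fell (30.0% against 5.11% of all genes) and 0 rose: CD14, the lipopolysaccharide co-receptor (8.35 and 8.33 with siNC, 7.72 and 7.41 with sip53, 9.57 and 9.49 with siATM), CD22 (−0.47) and SELPLG (−0.32). The mean log2 level of the 10 was 7.92 and 7.95 with siNC, 7.75 and 7.72 with sip53 and 8.19 and 8.22 with siATM. Of 6 endothelial and fibroblast markers LUM (0.49) rose, and of 11 melanocytic and other markers 0 changed by limma (2 at an unadjusted p below 0.05). The samples are of an established tumour cell line, so these genes were not read as a count of other cell types. A link between them and the falls of the chemokine genes was not tested. With RNA from whole cultures, fewer cells that express a gene and less RNA per cell cannot be told apart. Of 24 epithelial genes, 3 rose, led by the luminal factor gene GATA3 (8.10 and 8.06 with siNC, 8.68 and 8.77 with sip53), and 3 fell, led by CD24 (−0.54) and the claudin gene CLDN7 (−0.53). Of 13 mesenchymal genes, the repressor gene SNAI2 (0.33) rose, and LOX (−0.42), MET (−0.38) and ZEB1 (−0.24) fell. The share changed was 25.0% of the epithelial and 30.8% of the mesenchymal genes, against 10.6% of all genes. Without any 1 of the 4 arrays the mesenchymal counts were 0 higher and 0 or 1 lower, and the epithelial counts 1 higher and 1 or 2 lower.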

How the data were processed

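RNA of 6 samples was hybridised to Affymetrix Human Gene 2.0 ST arrays, 1 array each, per the labels and the series' design text. The deposited values are log2 expression per probe set, a scale read from the values; background correction, summarisation and normalization are not given in the sources used here, and the arrays share nearly the same distribution, which removes any change in total RNA. Of 53617 probe sets, 16098 had 1 gene symbol in GEO's platform annotation, 0 several, and 37519 were unnamed here. Each of 14884 genes was represented by its probe set with the highest mean, and the 10640 whose mean reached 5.96, the median probe set's mean, were tested. Group means were fitted to all 6 arrays with limma 3.58.1 (R 4.3.3; 3 residual and 7.29 total degrees of freedom after eBayes), with two-sided p-values adjusted by Benjamini-Hochberg at 0.05, and SE are moderated. The siATM arrays inform the spread, and sip53 minus siATM comes from the same fit. The code was tested on simulated data.

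Genes named are CXCL8, the 15 highest and 15 lowest changes with arrays that do not overlap, without symbols of uncharacterised loci, microRNAs, small RNAs and long non-coding RNAs (prefixes LOC, LINC, MIR, SNOR and the like, or -AS and -IT), and up to 5 changed members of each of 56 gene lists with at least 3; other list members, changed (as CXCL2, CSF1, LRP6, LGR4, MYLIP, SREBF1, OXTR, CDK19, MICA) or not, were named to complete a pathway with their values known. Members and lists were chosen with earlier results of these data known. The integrin and histone lists had 0 tested members and the proteasome list 1. Sequences are from RefSeq tables (GRCh38.p14), matched by symbol. The number of arrays limits the precision, and probe sets of near-identical genes share signal.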

Additional observations from a re-analysis of the deposited data

How the results depend on the processing

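With 1 array left out, the number of changed genes ranged from 272 to 1242, with 112 to 658 higher and 160 to 584 lower; the highest values come from leaving out an siATM array, and without an siNC or sip53 array the number was at most 329. Without the filter on dim genes 481 changed (215 higher, 266 lower). Letting the prior variance follow the level, with robust moderation, gave 1742 (962 higher). The other alternatives, which were the filter at the 70th percentile, quantile normalization, centring, only the siNC and sip53 arrays and the mean of all probe sets, gave between 1078 and 1571. The number at 1.5-fold or more stayed within 1.5 times of 145 in every setting run. None of the 155 genes picked by the naming rule changed direction in any setting, and 69 kept their call with any 1 array left out. The labels give the same replicate numbers to each group but do not say that they mark a shared day, and deviations of same-numbered arrays correlated at 0.03 (siNC with sip53), 0.04 (siNC with siATM) and 0.12 (sip53 with siATM), so no pairing was used; with the replicate block 1001 genes changed. With 2 arrays a group, small changes are the least secure: the smallest called change was 0.21 on the log2 scale.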

Other observations

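Families that were chosen after their values were seen are given here as counts over all members, with no test. Over all genes tested 5.47% rose and 5.11% fell. Of 11 tested genes of the myotubularin family, phosphatases that act on phosphoinositide lipids of endosomes, 6 fell and 0 rose, with a median of −0.26. MTMR6 was at 9.27 and 9.29 with siNC and 8.40 and 8.29 with sip53, MTMR14 at 9.49 and 9.49 with siNC and 8.71 and 8.66 with sip53, and MTMR2 at 10.61 and 10.41 with siNC and 9.82 and 9.71 with sip53. MTMR1 (−0.30), MTMR4 (−0.30) and MTMR11 (−0.26) fell less. Of 41 BBS and CEP genes, which encode proteins of cilia and centrosomes, 6 rose and 2 fell, with BBS4 (0.72), CEP162 (0.66) and CEP19 (0.66) highest. Single genes were chosen with their values known as well. PTCH1, the Hedgehog receptor, rose from 8.40 and 8.37 to 9.12 and 9.14. The imprinted genes PEG10 and MEST rose by 0.94 and 0.67. The neighbouring genes EVI2A and EVI2B rose by 0.95 and 0.62.

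Of 357 tested microRNA genes 10 rose and 6 fell, smaller shares than the 5.47% and 5.11% over all genes tested. Their probe sets cover the gene or its precursor, and mature microRNAs were not measured. MIR146A, a known NF-kB target whose microRNA dampens the same pathway, was at 7.60 and 7.30 with siNC, 6.74 and 6.67 with sip53 and 6.61 and 6.44 with siATM (log2 fold change −0.74, adjusted p = 0.00759), and lost its call in 1 of 6 fits with 1 array left out (adjusted p = 0.0571). MIR27B and MIR23B, which lie in 1 cluster, rose by 0.73 and 0.42. Their main mature forms are shown to identify them, with the seed (bases 2 to 8) in capitals.
hsa-miR-146a-5p: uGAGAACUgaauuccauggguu
hsa-miR-27b-3p: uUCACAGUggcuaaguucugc
hsa-miR-23b-3p: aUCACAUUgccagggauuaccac

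Of 15378 unnamed probe sets above the limit, 145 were higher and 215 lower when all probe sets were fitted together, or 2.34% against 3.60% of the named probe sets in that fit. Of 40 changed genes with several probe sets above the limit, 37 had all of them on the same side of 0, and the exceptions were ADO, DENND2B and OSGEPL1.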
